A study of Mus musculus with 12 samples.

Results

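Gasdermins are proteins that, once cut by a protease, let their front portion insert into membranes and assemble into pores. The pores release inflammatory cargo and, when they persist, end the cell by pyroptosis, a lytic form of cell death. In mice, a single gene encodes GSDMD and another GSDME, whereas the GSDMA and GSDMC branches were duplicated into neighbouring copies known mainly from skin and from gut epithelium respectively. Expression of the family was examined in TECs, the epithelial cells of the thymus, whose medullary subset transcribes many genes that otherwise belong to other tissues.

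The members were all genes whose symbol starts with Gsdm, 12 of the 25867 genes with a symbol. By RefSeq annotation, 9 of them are protein coding and 3, Gsdmcl1, Gsdmcl2 and Gsdmcl-ps, are transcribed pseudogenes. A filter on low counts left 10 of the 12 among the 18670 genes tested. Gsdmcl1 had 0 counts in every library, which allows 3 counts per group, or up to 0.0325 CPM (counts per 1000000 counts of a library, after TMM scaling) in the knockout group, where that limit was highest. Gsdmcl2 had 3 counts, all in knockout library 3.

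TECs were sorted from organ cultures of fetal thymus (C57BL/6 background), and RNA-seq libraries fall into 4 groups of 3 biological replicates. All lobes were taken at E15.5, spent 4 to 5 days in 1.35 mM 2'-deoxyguanosine, which removes thymocytes, and then 3 days in medium with agonist anti-RANK antibody at 10 µg/mL, which switches on AIRE. The control group, labelled only as control genotype, and the Kat7 knockout group, RosaCre-ERT2 Kat7 fl/fl, both received tamoxifen, which switches on the recombinase that deletes floxed Kat7. The wild-type groups received the solvent DMSO or WM-3835, an inhibitor of the histone acetyltransferase KAT7. The labels give neither the Cre status of the controls nor the dose and duration of the inhibitor, and the titles of the inhibitor samples spell it WM-3825. RosaCre-ERT2 is not restricted to epithelium, and deletion in the other cells of the lobe is part of this model.

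Libraries held 26656847 to 52368012 counts. Kat7 stood at 76 to 89 CPM in the control libraries and at 0.606 to 0.869 CPM in the knockout libraries, a log2 change of -6.74 (adjusted p = 1.31e-16, edgeR). Xist, the RNA of the inactive X chromosome, divided the libraries in a way that runs partly with genotype: 2.34 to 3.17 CPM in the controls, 1709, 1191 and 4.94 CPM in knockout 1, 2 and 3, and 846 to 2118 CPM in the wild-type groups. The TEC markers Epcam, Krt5, Krt8, Krt14, Foxn1, Psmb11 and Aire summed to 8378 to 9416 CPM in the controls. Their sum was 8360 to 8633 in the knockout, 6769 to 8164 with DMSO and 5674 to 6424 with WM-3835. Of the 7, 2 were called lower and 0 higher in the knockout (edgeR, adjusted p under 0.05). With WM-3835, 4 were called lower and 1 higher. Aire changed by -0.24 on the log2 scale in the knockout (edgeR adjusted p = 0.0457) and by -1.11 with WM-3835 (3.36e-08). Over all tested genes, 8.06% were called lower in the knockout and 9.35% with WM-3835. The fibroblast markers summed to 113 to 172 CPM in the controls, 47.7 to 70.9 in the knockout and 41.8 to 51.1 in the wild-type libraries. Markers of macrophages and dendritic cells summed to 64.7 to 112 CPM in the controls and to 41.6 to 71.4 CPM elsewhere. In bulk RNA, fewer cells of a type and less RNA per cell cannot be told apart.

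The members lie at 4 loci on mm10 (GRCm38.p6). Gsdma3 (Entrez ID 450219, chr11:98626349-98638801), Gsdma2 (76758, chr11:98646743-98657964) and Gsdma (57911, chr11:98664337-98677708) stand side by side. On chromosome 15 the GSDMC branch runs from Gsdmc (83492, chr15:63775971-63808739) through Gsdmc2 (331063, chr15:63824328-63845193), Gsdmcl1 (74236, chr15:63847309-63850942), Gsdmc3 (270328, chr15:63857605-63878579), Gsdmcl2 (665769, chr15:63880707-63889073) and Gsdmc4 (74548, chr15:63891140-63912319) to Gsdmcl-ps (74460, chr15:63914461-63925453). Gsdmd (69146, chr15:75862144-75867408) lies elsewhere on the same chromosome, and Gsdme (54722, chr6:50207401-50263857) is alone. No exon of another annotated gene overlaps a member's exons on either strand.

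The copies of the GSDMC branch are close enough in sequence to share reads. Shown are the first 105 coding bases of the 4 protein-coding copies from the GENCODE M21 transcripts (GRCm38), each within 1 exon on the minus strand. Capitals mark the 13 positions at which at least 1 copy differs from the others.
Gsdmc (chr15:63804488-63804592): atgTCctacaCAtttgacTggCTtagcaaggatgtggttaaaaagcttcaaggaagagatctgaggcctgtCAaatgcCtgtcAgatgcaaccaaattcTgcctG
Gsdmc2 (chr15:63835839-63835943): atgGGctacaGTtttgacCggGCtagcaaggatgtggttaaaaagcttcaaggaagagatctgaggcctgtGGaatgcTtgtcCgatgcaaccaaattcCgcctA
Gsdmc3 (chr15:63869193-63869297): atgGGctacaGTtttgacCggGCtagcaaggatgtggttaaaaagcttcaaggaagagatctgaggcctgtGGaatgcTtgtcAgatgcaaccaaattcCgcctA
Gsdmc4 (chr15:63902826-63902930): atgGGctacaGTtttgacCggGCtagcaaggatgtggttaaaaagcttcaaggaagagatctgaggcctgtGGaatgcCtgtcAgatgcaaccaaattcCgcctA
Over the whole coding sequence, Gsdmc2 and Gsdmc3 were identical at 1398 of 1440 bases (97.1%), and each shared 93.8% with Gsdmc4. Gsdmc was more distant, at 87.0% to 88.1% identity to the other copies. The Gsdma copies were 89.0% to 91.4% identical to each other, and members of different branches 61.4% to 65.5%.

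How the authors' counting treated reads that fit several copies is not given in the sources used here. Of all 75-base windows of a transcript, the length of 1 read, 63.0% occurred in no other gene's transcript for Gsdmc2, 62.8% for Gsdmc3, 71.5% for Gsdmc4, 74.5% for Gsdmcl-ps and 88.8% for Gsdmc. The counts of these single copies are therefore uncertain, and each is given beside their sum. Libraries were sequenced as pairs of reads, and the share of pairs that fit several copies was not computed. If each shared read was assigned to 1 copy, the sum does not depend on which; if shared reads were left out or counted once per copy, the sum is affected too. Gsdmcl-ps also shares 75 windows with 1700065I16Rik, a gene outside the sum. The Gsdma copies had 94.6% to 99.7% unique windows, and Gsdmd and Gsdme shared 0 windows with any other gene.

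A promoter window, from 250 bases before to 50 bases after a gene's annotated start, was matched for 3 of the 12 members in the RefSeq table (GRCm38.p6), of which Gsdmc3 is shown because it fell in both comparisons below. The 250 bases before the start used for this window, at chr15:63878559-63878808 on the minus strand, read as follows, with the match to TATATAA in capitals.
Gsdmc3: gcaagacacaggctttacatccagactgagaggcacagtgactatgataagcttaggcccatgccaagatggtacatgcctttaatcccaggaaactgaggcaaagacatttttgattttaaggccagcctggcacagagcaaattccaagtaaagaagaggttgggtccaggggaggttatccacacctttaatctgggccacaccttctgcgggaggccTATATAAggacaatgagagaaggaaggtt
The match begins 29 bases before the start used for this window. The extent given above for Gsdmc3 reaches 63878579 on this minus strand, so the last bases printed lie inside it. Counted from that coordinate, the match begins closer to the gene. TATATAA occurred on either strand in 3.24% of the 32851 such windows in that table, counted over the whole window with the 50 bases after the start, which are not shown. TATAAA (13.6% of windows), a STAT6 motif of TTC and GAA spaced by 4 bases (6.95%), and TGANTCA, an AP-1 motif (7.81%), were searched on both strands and had no match in the windows of Gsdmc3, Gsdma3 and Gsdme. Over the whole window, Gsdmc3 and Gsdma3 each held 2 CG dinucleotides and Gsdme 24, against a median of 7 over all windows. The Gsdme window, chr6:50261720-50262019, lies inside the extent given above for that gene and so uses another start too.

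**Figure D1:**
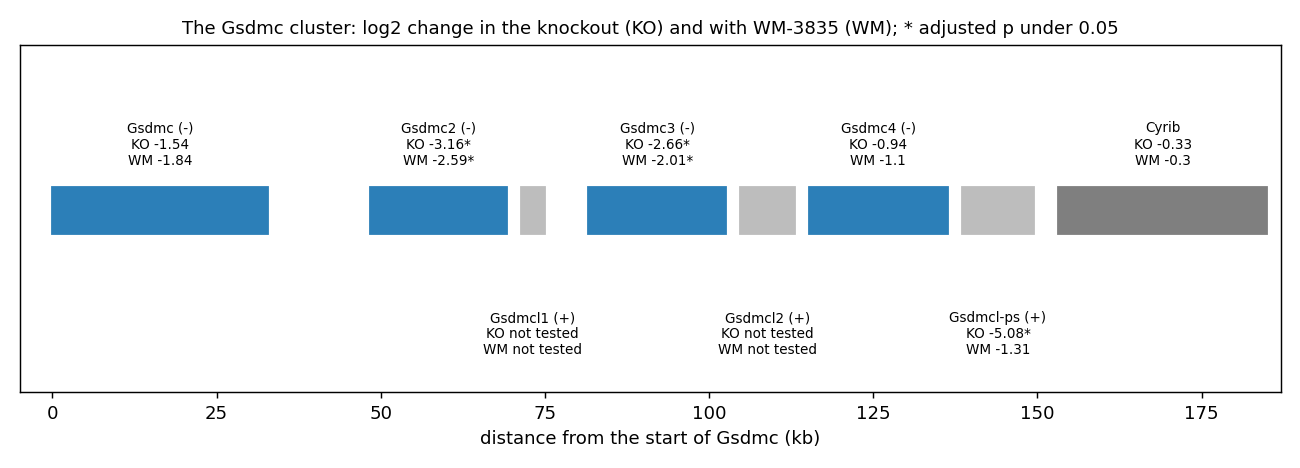
Map of the GSDMC locus: the x axis is the distance in kb from the annotated start coordinate of Gsdmc, boxes are annotated gene extents (blue protein-coding copies, light grey pseudogenes, dark grey the neighbour Cyrib, drawn only in part), signs in parentheses are strands, and the numbers are log2 changes in the knockout (KO) and with WM-3835 (WM), with an asterisk at an adjusted p under 0.05. Gsdmc2 (-3.16 and -2.59) and Gsdmc3 (-2.66 and -2.01) carry asterisks in both comparisons, and Cyrib (-0.33 and -0.3) in neither.

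Knockout and control cultures were compared to see how TEC genes respond to the absence of KAT7. Gsdmc2 and Gsdmc3, the GSDMC copies with the highest levels in the control, were 8.93- and 6.32-fold lower in the knockout, and the transcript of the pseudogene Gsdmcl-ps was nearly absent. Gsdmd, the family's most abundant member and the executor of inflammasome-driven pyroptosis, differed by less than its replicate spread. Of the 10 members tested, 3 fell, 0 rose and 7 did not pass the test (edgeR quasi-likelihood, adjusted p under 0.05 over all 18670 genes). Of all tested genes, 8.06% fell, 6.12% rose and 14.2% were called in either direction.

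Gsdmc2 stood at 6.51, 2.94 and 8.85 CPM in the control libraries and at 0.578, 0.773 and 0.695 CPM in the knockout libraries. Every knockout library lay below every control. The fall was 3.16 on the log2 scale (SE 0.47, 8.93-fold, adjusted p = 0.000217). Gsdmc3, its nearest relative, stood at 5.3, 5.83 and 7.65 CPM in the controls and at 0.909, 0.663 and 1.39 CPM in the knockout, again without overlap. It fell by 2.66 (SE 0.39, 6.32-fold, adjusted p = 0.000218). Both genes are known from the intestine, where cytokines of type 2 immunity induce them.

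Gsdmcl-ps had 68, 32 and 48 counts in the controls and 0, 0 and 3 counts in the knockout. The summed counts gave a ratio of knockout to control of 0.026 (exact 95% interval 0.0053 to 0.0775, counting error only). Its fitted log2 change of -5.08 (SE 1.39, adjusted p = 0.0206) rests on few knockout counts and is no bound. The call was lost without knockout 1 (-4.46, adjusted p = 0.059), without knockout 2 (-4.56, adjusted p = 0.0612) and in a fit on the 6 libraries of the comparison (-5.07, adjusted p = 0.0838), and the change was -8.55 (adjusted p = 0.0102) without knockout 3, the library that holds the 3 counts.

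The other GSDMC copies did not pass. Gsdmc4 stood at 2.91, 0.971 and 1.45 CPM in the controls and at 1.68, 0.552 and 0.521 CPM in the knockout, with overlap through knockout 1 (log2 change -0.94, SE 0.63, adjusted p = 0.363). Gsdmc had 32, 16 and 7 counts in the controls and 4, 0 and 10 in the knockout, also overlapping (-1.54, SE 1.26, adjusted p = 0.466). Gsdmc had at most 36 counts in any library, and a change of this size could not be told from its replicate spread at this depth.

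The Gsdma copies, known from differentiating epidermis and hair follicle, did not pass either. Gsdma stood at 4.35, 3.51 and 3.78 CPM in the controls and at 0.937, 2.17 and 4.62 CPM in the knockout (-0.6, SE 0.47, adjusted p = 0.447), so that knockout 1 and 2 lay below all controls and knockout 3 above them. Gsdma3, the copy whose mutations cause hair loss in mice, showed the same order of knockout libraries, at 0.661, 1.36 and 2.92 CPM against 1.11, 1.97 and 0.863 CPM in the controls (0.32, SE 0.62, adjusted p = 0.787). Gsdma2 varied most of all members, from 0.498 to 3.73 CPM in the controls and from 0 to 1.36 CPM in the knockout (-1.82, SE 1.16, adjusted p = 0.338).

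Gsdmd stood at 63.4, 83.8 and 52.8 CPM in the controls and at 75, 56.8 and 62.6 CPM in the knockout. The log2 difference was -0.04 (SE 0.14, adjusted p = 0.887), with a 95% interval of -0.34 to 0.26. Gsdme ranged from 0.0996 to 2.7 CPM in the controls and from 0.147 to 1.39 CPM in the knockout (-1.16, SE 0.93, adjusted p = 0.46), with control 2 and knockout 2 at 4 counts each.

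**Figure D2:**
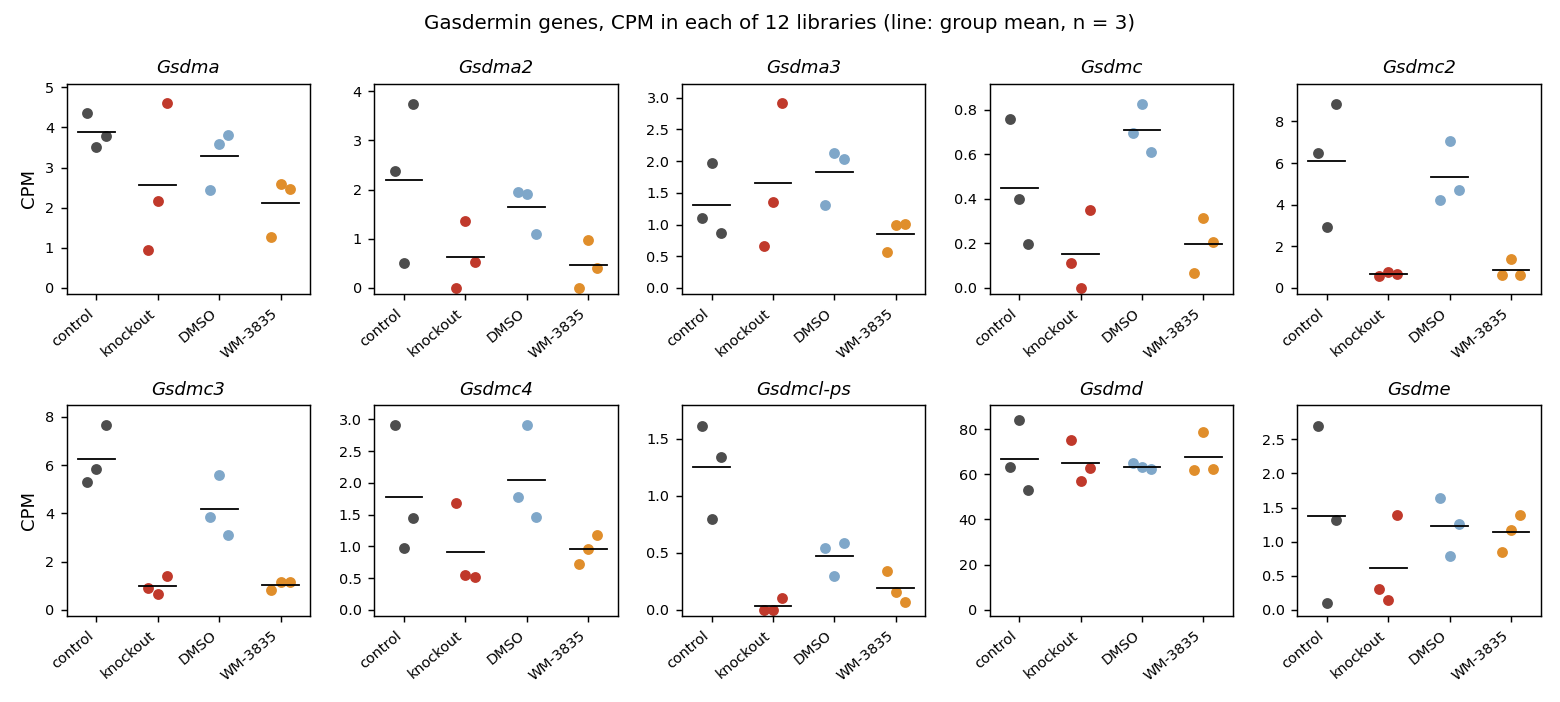
Level of the 10 tested gasdermin genes in every library, in CPM on a linear axis that differs between panels; points are libraries in the 4 groups and horizontal lines are group means (n = 3). Gsdmc2 and Gsdmc3 separate the knockout and WM-3835 libraries from their own controls, while Gsdmd stays between 52.8 and 83.8 CPM in all 12.

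Rates of calls differed by expression level. In the knockout, 3.77% of genes in the lowest quartile of mean expression, where 6 of the 10 members lie, and 11.4% in the second quartile, which holds Gsdma, Gsdmc2 and Gsdmc3, were called lower. The median log2 change over the 10 members was -1.35, with 9 of 10 negative, against -0.01 over all tested genes and -0.43 in the lowest quartile. The GSDMC copies among the members share sequence, so their signs are not independent. No share of negative signs over all genes was computed. The 3 members called were also the 3 in which every knockout library lay below every control, as it did in 13.5% of all genes.

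Xist was low in all controls and in knockout 3 but high in knockout 1 and 2. With log2 Xist as a covariate, Gsdmc2 changed by -2.97 (adjusted p = 0.0636), Gsdmc3 by -2.08 (adjusted p = 0.0773) and Gsdmcl-ps by -3.33 (adjusted p = 0.388), and none passed. With knockout 3 as the only knockout library, Gsdmc2 changed by -3.11 (adjusted p = 0.0346) and Gsdmc3 by -2.16 (adjusted p = 0.0359), and both passed; the lone library is assumed there to vary like the other groups. Gsdmcl-ps did not (-3.53, adjusted p = 0.243). The direction of Gsdma and Gsdme turned in both fits, to 0.45 and 0.07 with the covariate and to 0.26 and 0.03 with knockout 3 alone.

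The inhibitor addresses the same question by chemical means in wild-type cultures. With WM-3835, Gsdmc2 was 6.04-fold and Gsdmc3 4.03-fold lower, and Gsdmd again differed by less than its replicate spread. Of the 10 members tested, 2 fell, 0 rose and 8 did not pass, while 9.35% of all tested genes fell, 9.34% rose and 18.7% were called in either direction.

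Gsdmc2 stood at 4.24, 7.07 and 4.73 CPM with DMSO and at 0.627, 1.38 and 0.625 CPM with WM-3835. It fell by 2.59 on the log2 scale (SE 0.45, 6.04-fold, adjusted p = 0.000436). Gsdmc3 stood at 3.83, 5.57 and 3.09 CPM with DMSO and at 0.806, 1.15 and 1.15 CPM with the inhibitor, and fell by 2.01 (SE 0.39, 4.03-fold, adjusted p = 0.00104). In both genes every WM-3835 library lay below every DMSO library.

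Gsdmc4 and Gsdmc were lower in every WM-3835 library than in any DMSO library, without passing the test. Gsdmc4 stood at 1.77, 2.92 and 1.47 CPM with DMSO and at 0.716, 0.965 and 1.18 CPM with WM-3835 (log2 difference -1.1, SE 0.63, adjusted p = 0.262). Gsdmc stood at 0.694, 0.823 and 0.609 CPM with DMSO and at 0.0671, 0.313 and 0.208 CPM with WM-3835 (-1.84, SE 1.25, adjusted p = 0.361). Gsdmcl-ps had 28, 8 and 25 counts with DMSO and 15, 6 and 2 counts with WM-3835, which overlap (-1.31, SE 1.14, adjusted p = 0.508).

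Gsdma3 and Gsdma2 likewise did not overlap between the groups. Gsdma3 stood at 1.31, 2.13 and 2.04 CPM with DMSO and at 0.56, 0.991 and 1.01 CPM with WM-3835 (-1.1, SE 0.63, adjusted p = 0.263). Gsdma2 ranged from 1.1 to 1.95 CPM with DMSO and from 0 to 0.965 CPM with WM-3835 (-1.84, SE 1.17, adjusted p = 0.323). Gsdma overlapped, at 2.45, 3.59 and 3.82 against 1.28, 2.58 and 2.46 CPM (-0.64, SE 0.47, adjusted p = 0.406). The fit across all 12 libraries takes its spread from all 4 groups, and the control libraries vary most. Fitted on the 6 wild-type libraries alone, Gsdmc (-1.86, adjusted p = 0.0434), Gsdmc4 (-1.11, adjusted p = 0.0421) and Gsdma3 (-1.11, adjusted p = 0.0472) also passed, which makes 5 members called. With limma-voom and quality weights per group, Gsdmc (-2.03, adjusted p = 0.0411) and Gsdma2 (-3.47, adjusted p = 0.0198) passed beside Gsdmc2 and Gsdmc3, which makes 4.

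Gsdmd stood at 64.9, 63 and 62.1 CPM with DMSO and at 62, 78.5 and 62.2 CPM with the inhibitor. The log2 difference was 0.09 (SE 0.14, adjusted p = 0.739) with a 95% interval of -0.2 to 0.39. Gsdme stood at 1.64, 0.786 and 1.26 CPM with DMSO and at 0.85, 1.17 and 1.39 CPM with WM-3835 (-0.12, SE 0.91, adjusted p = 0.961), and the groups overlapped.

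In the lowest quartile of expression, 2.38% of genes were called lower with WM-3835, and in the second quartile 13.2%. The median log2 change over the 10 members was -1.21, with 9 of 10 negative, against -0.01 over all tested genes and -0.41 in the lowest quartile. As in the knockout, signs of the GSDMC copies are not independent, and no share of negative signs over all genes was computed. In 6 of the 10 members, Gsdma3, Gsdma2, Gsdmc, Gsdmc2, Gsdmc3 and Gsdmc4, every WM-3835 library lay below every DMSO library, as it did in 23.0% of all tested genes.

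**Figure D3:**
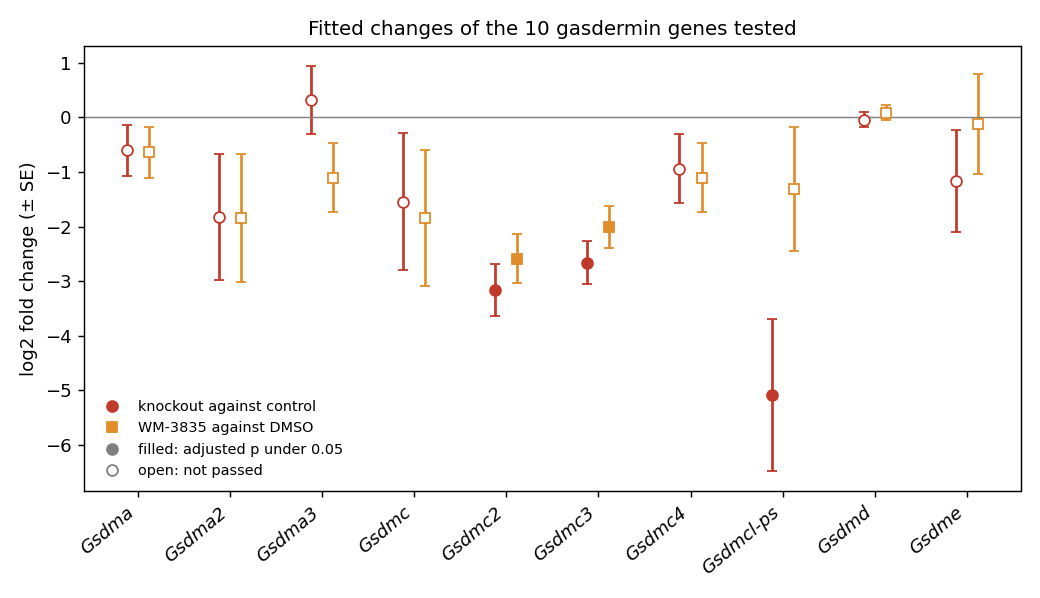
Fitted log2 fold change (± SE) of each tested gasdermin gene in the knockout against control (circles) and with WM-3835 against DMSO (squares); filled symbols have an adjusted p under 0.05. Gsdmc2 and Gsdmc3 are filled in both comparisons, Gsdmcl-ps only in the knockout at -5.08, and Gsdmd sits at -0.04 and 0.09.

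Whether the genetic and chemical effects differ was tested as the difference between the changes, knockout effect minus inhibitor effect. None of the 10 members passed, against 10.1% of all tested genes, and Gsdmcl-ps was the 1 member with an unadjusted p under 0.05 (difference -3.76, SE 1.74, edgeR adjusted p = 0.198). Limma-voom also called 0 members, and DESeq2 called 0 of the 8 for which it gave an adjusted p, Gsdmcl-ps and Gsdmc being without one. Without knockout 3, Gsdmcl-ps passed (-7.24, adjusted p = 0.0458), which rests on a group with 0 counts. For Gsdmc2 the difference was -0.56 (SE 0.62, 95% interval -1.87 to 0.74, adjusted p = 0.662), and for Gsdmc3 it was -0.65 (SE 0.53, 95% interval -1.77 to 0.47, adjusted p = 0.525). A missed threshold here does not show that the effects are equal.

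Because single copies share reads, the 7 symbols of the GSDMC branch were also summed. The sum stood at 17.1, 10.9 and 19.5 CPM in the controls and at 3.28, 1.99 and 3.16 CPM in the knockout, a log2 ratio of means of -2.49. It stood at 11.1, 16.7 and 10.5 CPM with DMSO and at 2.55, 3.96 and 3.23 CPM with WM-3835, a log2 ratio of -1.97. The highest of the knockout and WM-3835 libraries, at 3.96 CPM, was below the lowest of the control and DMSO libraries, at 10.5 CPM. The sum is a description without a test.

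Within the sum, the shares of the copies varied between libraries. Gsdmc2 made up 36.8% ± 9.34 of the summed counts in control (mean ± SD, n = 3 in each group), 26.2% ± 11.2 in the knockout, 41.9% ± 3.44 with DMSO and 26.3% ± 7.9 with WM-3835. Gsdmc4 made up 11.1% ± 5.18, 31.8% ± 17.7, 15.9% ± 1.72 and 29.7% ± 6.26 in the same order. The share of Gsdmc3 was 41.2% ± 11.3, 35% ± 8.24, 32.5% ± 2.69 and 32% ± 3.29. Control and knockout shares overlapped for each of these 3 copies. Between DMSO and WM-3835, the shares of Gsdmc2 and of Gsdmc4 did not overlap, and those of Gsdmc3 did. The shares were not tested and depend on how shared reads were assigned.

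**Figure D4:**
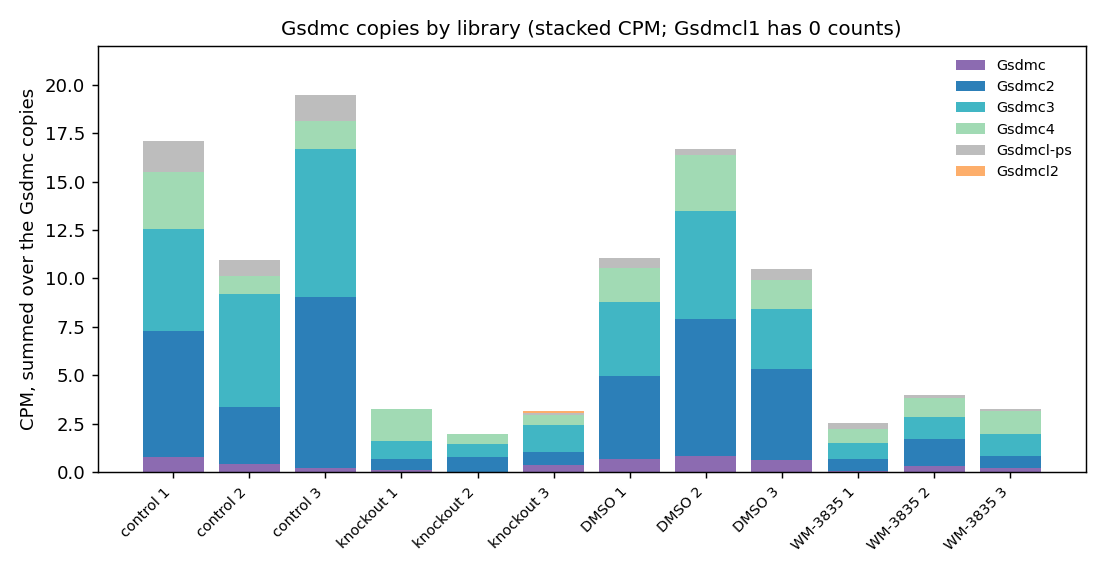
Counts of the GSDMC copies stacked by copy in each of the 12 libraries, in CPM, so that a bar's height is the summed level. Control and DMSO bars reach 10.5 to 19.5 CPM, and knockout and WM-3835 bars 1.99 to 3.96 CPM.

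The 3 Gsdma copies summed to 7.83, 5.98 and 8.38 CPM in the controls, 1.6, 4.9 and 8.07 CPM in the knockout, 5.7, 7.63 and 6.95 CPM with DMSO and 1.84, 4.54 and 3.89 CPM with WM-3835. The log2 ratio of means was -0.61 in the knockout, whose libraries overlap the controls through knockout 3, and -0.98 with the inhibitor, where the groups do not overlap.

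Levels can be compared between genes only per length, here CPM per kb of the deposited gene length. Gsdmd was the highest member in every group, at 37.5 in control, 36.5 in the knockout, 35.7 with DMSO and 38 with WM-3835 CPM per kb. In control the next were Gsdmc3 at 2.92 ± 0.577 and Gsdmc2 at 2.64 ± 1.29 CPM per kb (SD, n = 3), which did not differ beyond their spread. In the knockout the next was Gsdma3 at 1.12 ± 0.783, with DMSO Gsdmc2 at 2.31 ± 0.654, and with WM-3835 Gsdma at 0.773 ± 0.265 CPM per kb. These did not differ beyond their spread from the members ranked after them, Gsdma at 0.946 ± 0.688 in the knockout, Gsdmc3 at 1.94 ± 0.595 with DMSO and Gsdma3 at 0.577 ± 0.172 with WM-3835. Gsdmd exceeded the next member 12.8-fold in control, 32.7-fold in the knockout, 15.4-fold with DMSO and 49.2-fold with WM-3835. Gsdmc3 and Gsdmc2, the next members in control and with DMSO, had 62.8% and 63.0% unique windows, against 100% for Gsdmd. If shared reads were left out, the levels and ranks of these copies are understated, and the ratios in those groups overstated. If shared reads were counted once per copy, the error runs the other way. The knockout ratio was 54.2 without knockout 3 and 23.2 without knockout 1. Gsdmc2 moved from rank 3 in control to rank 7 in the knockout, and from rank 2 with DMSO to rank 7 with WM-3835. Gsdmc3 moved from rank 2 to 4 and from rank 3 to 5 in the same order.

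Replicate spread differed widely among the members. The biological coefficient of variation, the relative spread between replicates beyond counting, was 0.123 for Gsdmd, 0.312 for Gsdmc3 and 0.366 for Gsdmc2, against a median of 0.155 over all tested genes. It was 0.399 for Gsdma, 0.503 for Gsdma3, 0.508 for Gsdmc4, 0.741 for Gsdme, 0.745 for Gsdmcl-ps, 0.809 for Gsdmc and 0.934 for Gsdma2. Of the 10 members, 6 lie in the lowest quartile of mean expression and 3 in the second. No median over genes of a like level was computed, so these values do not show whether the family varies more than such genes.

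The DMSO and control groups differ in treatment and genotype label together, and also in Xist, at 1382 to 1898 CPM against 2.34 to 3.17 CPM. These differences cannot be told apart, and this comparison shares its samples with both main ones. Of the members, 0 of 10 passed, none had an unadjusted p under 0.05 with edgeR, and DESeq2 and limma-voom called 0, against 24.6% of all tested genes with edgeR. Gsdmc2 differed by -0.19, Gsdmc3 by -0.59 (SE 0.36, adjusted p = 0.269) and the summed GSDMC copies by a log2 ratio of -0.31. Gsdmcl-ps was lower in each DMSO library, at 0.54, 0.299 and 0.585 CPM, than in any control, at 1.61, 0.797 and 1.34 CPM (-1.38, SE 1.12, adjusted p = 0.424). In 19.4% of all tested genes every DMSO library lay below every control. Aire was higher with DMSO than in control (log2 difference 0.92, edgeR adjusted p = 8.75e-08).

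Genes next to the members are given beside the shares of all tested genes called, 14.2% in the knockout and 18.7% with WM-3835. The nearest tested gene beyond the GSDMC locus, Cyrib, 3.64 kb away, differed by -0.33 in the knockout (adjusted p = 0.0835) and by -0.3 with WM-3835 (adjusted p = 0.0956), and Asap1 by -0.04 and 0.11. At the Gsdma and Gsdme loci, 0 of 5 tested neighbours passed in either comparison (edgeR), with 2, Pals2 (-0.27, adjusted p = 0.151) and Osbpl3 (0.29, adjusted p = 0.0938), at an unadjusted p under 0.05 in the knockout and 0 with WM-3835. Beside Gsdmd, the NAD synthesis gene Naprt fell by 0.45 in the knockout (adjusted p = 0.0041) and differed by 0.01 with WM-3835.

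Over the 12 libraries, the genes whose log2 CPM tracked Gsdmc2 most closely were Irag1 (Pearson r 0.97), Ank (0.96), Bpifb3, Il2ra and Ncf1 (0.95 each). For Gsdmc3 they were Ncf1 (0.98), Rogdi (0.97), Tm7sf3, Il2ra and Apoe (0.96 each). With group means removed, r with Gsdmc2 was 0.77 for Irag1, 0.62 for Ank, 0.9 for Bpifb3, 0.43 for Il2ra and 0.34 for Ncf1. With Gsdmc3 it was 0.79 for Ncf1, 0.75 for Rogdi, 0.71 for Tm7sf3, 0.17 for Il2ra and 0.06 for Apoe. Gsdmc2 and Gsdmc3 had r of 0.93 with each other and 0.37 within groups, and they share reads. Gsdma tracked Vtn (0.93), Afap1l1 and Muc19 (0.92 each), and Gsdmd tracked Rftn1 and Snx17 (0.92 each). All points share the same libraries, and these values are a description.

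The other genes of the pathway were described by lists of their roles. Over all tested genes, 6.12% rose and 8.06% fell in the knockout, and 9.34% rose and 9.35% fell with WM-3835. Of the proteases that cut gasdermins, 8 were measured and 6 tested; 0 passed in the knockout, where 1 had an unadjusted p under 0.05 (edgeR; no other tool was run on the lists' counts), and 1 rose with WM-3835. The median log2 change of the 6 was -0.05 in the knockout and 0.1 with WM-3835, against -0.01 over all tested genes in both. The gene that rose was Casp1, whose product cuts GSDMD in canonical inflammasome signalling. It stood at 14.6, 17.1 and 12.5 CPM with DMSO and at 24.6, 25.1 and 25.7 CPM with WM-3835, which is a rise of 0.77 on the log2 scale (SE 0.14, adjusted p = 0.000771). In the knockout it differed by 0.27 (adjusted p = 0.226), and the difference between the effects did not pass (-0.5, adjusted p = 0.13).

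Casp4, which encodes the caspase that senses cytosolic lipopolysaccharide, differed by -0.12 (adjusted p = 0.439) and 0.1 (0.528) in the knockout and with WM-3835. Casp8, an initiator of apoptosis that also cuts gasdermins, differed by -0.13 (adjusted p = 0.485) and 0.27 (0.102). The neutrophil protease gene Elane was listed at 0 in all control, knockout and WM-3835 libraries.

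Of 17 inflammasome sensors and adaptors, 16 were tested. In the knockout 2 rose and 1 fell (median -0.02), and with WM-3835 2 rose and 0 fell (median 0.08). Nlrp1b, a sensor of protease activity, rose in both, from 51.1, 55 and 44.1 to 88.5, 75.7 and 92.3 CPM in the knockout (0.77, adjusted p = 4.97e-05) and from 99.2, 96.8 and 115 to 144, 148 and 144 CPM with the inhibitor (0.49, adjusted p = 0.00136). Dpp8, which encodes a peptidase that restrains NLRP1, rose by 0.24 in the knockout (adjusted p = 0.0358). Aim2, a sensor of cytosolic DNA, rose by 1 with WM-3835 (adjusted p = 0.0122), and in the knockout it differed by 0.77 (adjusted p = 0.0548). Nlrp6, a sensor known from gut epithelium, fell by 2.66 in the knockout (adjusted p = 0.0198) from controls at 1.49, 1.72 and 9.6 CPM, of which only control 3 is high. The adaptor gene Pycard differed by -0.3 (adjusted p = 0.187) and 0.31 (0.151).

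Of the 6 genes for released cargo and membrane rupture, 1 fell in the knockout (median -0.29), and with WM-3835 0 passed and 1 had an unadjusted p under 0.05 (median 0.35). Il33, an alarmin of epithelial cells, fell by 1.5 in the knockout (adjusted p = 0.0105), from 6.46, 7.69 and 12.4 to 1.79, 3.94 and 3.69 CPM. With WM-3835 it differed by 0.34 (adjusted p = 0.612), and the effects differed (-1.84, adjusted p = 0.028). Ninj1, whose product ruptures the membrane of dying cells, differed by -0.3 in the knockout (adjusted p = 0.105) and 0.35 with WM-3835 (adjusted p = 0.0502), and the effects differed as well (-0.66, adjusted p = 0.0183).

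Among 15 genes of the ESCRT machinery, which removes damaged membrane, 0 passed in the knockout, with 2 at an unadjusted p under 0.05 (edgeR, median 0.01), and 1, Chmp7, rose with WM-3835 (0.31, adjusted p = 0.0486; median of the list 0.02). Among 15 known regulators of gasdermin genes and proteins (medians 0.03 and 0.05), 1 rose in the knockout, and 1 rose and 1 fell with WM-3835. Il4ra, a receptor chain for interleukin 4 and 13, rose in the knockout (0.26, adjusted p = 0.048). With WM-3835, Stat6, which carries that receptor's signal, rose by 0.52 (adjusted p = 0.000128), from 104, 97 and 100 to 136, 143 and 153 CPM, while Rraga fell by 0.29 (adjusted p = 0.0274). The effects on Stat6 differed (-0.49, adjusted p = 0.00814), the knockout difference being 0.03. Irf2, an activator of Gsdmd transcription, differed by 0.23 in the knockout (adjusted p = 0.13) and 0 with WM-3835 (0.998).

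Necroptosis is another lytic death pathway, in which MLKL forms the membrane lesion. Of its 4 genes (median -0.22 in the knockout and 0.47 with WM-3835), 3 rose with the inhibitor: Mlkl by 1.22 (adjusted p = 0.000174), Ripk1 by 0.51 (adjusted p = 0.00832) and the sensor gene Zbp1 by 0.43 (adjusted p = 0.000427). With the inhibitor, 9.34% of all tested genes rose. Mlkl stood at 6.72, 8.75 and 6.09 CPM with DMSO and at 14.6, 17.6 and 17.7 CPM with WM-3835. In the knockout Zbp1 fell by 0.25 (adjusted p = 0.0322), and Mlkl differed by -0.2 (adjusted p = 0.548). The effects differed for Mlkl (-1.41, adjusted p = 0.00183) and Zbp1 (-0.67, adjusted p = 0.000328). Pjvk, a relative of the gasdermins outside the Gsdm symbols, reached at most 0.492 CPM in any library and passed in neither main comparison.

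**Figure D5:**
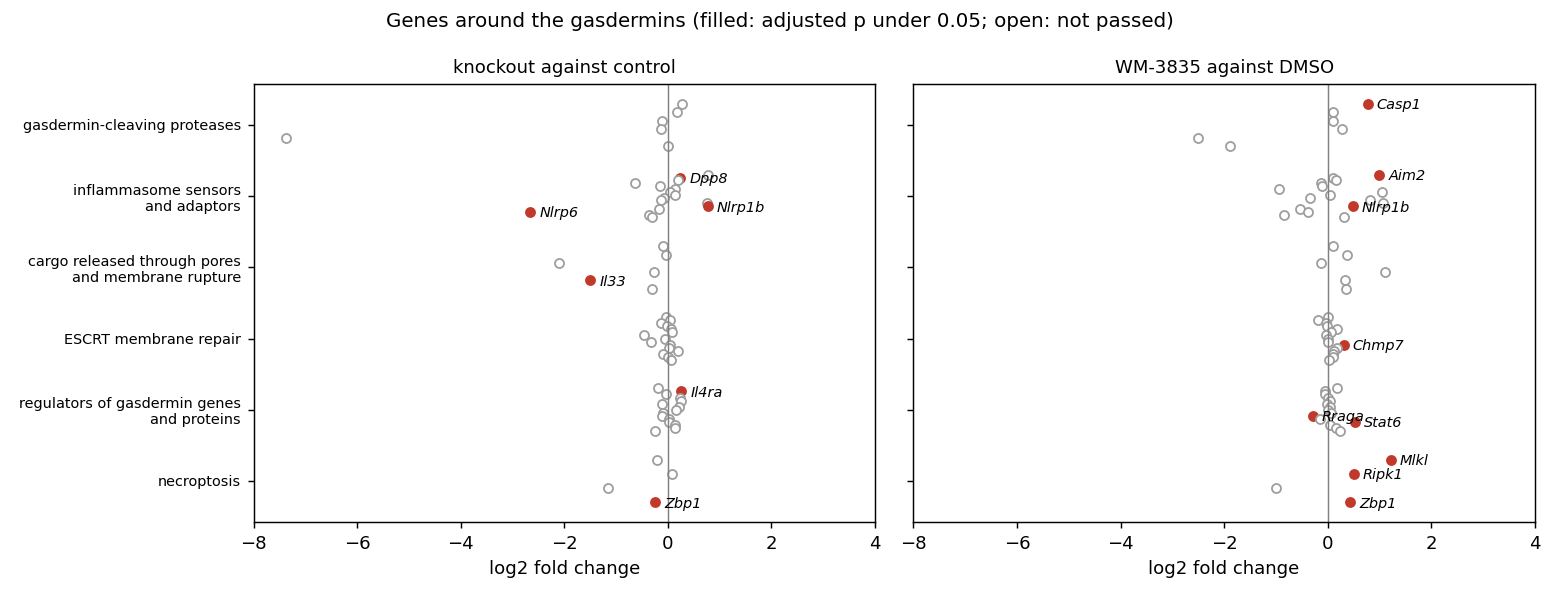
Fitted log2 change in the knockout against control (left) and with WM-3835 against DMSO (right) for the tested genes of each pathway list, 1 row of points per list; red named points have an adjusted p under 0.05 and open points did not pass. Most points lie near 0; with WM-3835 Mlkl at 1.22 and Aim2 at 1 lie farthest to the right among those that passed, and the open point farthest to the left in the knockout is the protease gene Gzma, which had 0 counts there and at most 1.2 CPM in a control.

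The levels of cell type markers are given beside the GSDMC copies. The 14 gut epithelium-like markers summed to 206 to 238 CPM in the controls, 135 to 148 in the knockout, 157 to 177 with DMSO and 116 to 146 with WM-3835. Cdx1 made up the largest part of each sum, at a mean of 90.6, 67.7, 108 and 64.7 CPM in the same order. The sums therefore do not describe the list as a whole. Of the 13 tested, 6 fell and 0 rose in the knockout, among them the intestinal mucin gene Muc2 (-2.92, adjusted p = 0.00221). Shares over all tested genes were 8.06% lower and 6.12% higher in the knockout, and 9.35% and 9.34% with WM-3835. With WM-3835, 3 fell and 2 rose: the intestinal regulator gene Cdx1 fell (-0.74, adjusted p = 5.63e-05), Vil1, which encodes a protein of the brush border, rose (1.44, adjusted p = 0.000185), and Muc2 differed by -0.46 (adjusted p = 0.646). The fibroblast markers fell in the knockout as well, with 4 of 6 called lower, and 2 were called lower and 1 higher with WM-3835. The microfold-like markers summed to 607 to 761, 614 to 765, 521 to 561 and 773 to 817 CPM in the 4 groups in the same order. Of these 6 markers, 1 was called higher and 2 lower in the knockout, and 3 higher and 0 lower with WM-3835. The part of these markers in the falls of Gsdmc2 and Gsdmc3 was not tested.

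The keratinocyte-like markers, which bear on the Gsdma copies, summed to 119 to 139 CPM in the controls, 138 to 171 in the knockout, 61.3 to 64.4 with DMSO and 60.6 to 72.2 with WM-3835. Of 8 tested, 2 rose and 1 fell in the knockout, and 1 rose and 1 fell with WM-3835. The tuft-like markers summed to 692 to 1034 CPM in the controls, 722 to 775 in the knockout and 60.5 to 97.6 in the wild-type libraries, with 0 of 8 called in either main comparison by edgeR and 3 at an unadjusted p under 0.05 in each. Markers of cytotoxic lymphocytes, whose granzymes can cut gasdermins, summed to at most 0.722 CPM, with Klrb1c and Prf1 at 0 in all controls and Ncr1, Prf1 and Nkg7 at 0 in the whole knockout group.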

How the data were processed

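Per the labels' protocols, RNA of sorted TECs was made into TruSeq v2 libraries, which do not mark strand, and sequenced as 75-base pairs. The deposited values are raw counts per gene. The submitters' processing notes name featureCounts and mm10. Aligner, annotation and handling of shared reads: not given in the sources used here. The 1312 of 27179 listed genes without a symbol (0.657% to 0.743% of a library's counts) were left out. Counts were scaled by TMM and tested with edgeR 4.0.16 in R 4.3.3 (filterByExpr, quasi-likelihood, 4 group means over 12 libraries, Benjamini-Hochberg over all 18670 genes, two-sided, called at 0.05), and CPM are TMM-scaled. The SE is the log2 change over the root of F. Replicates were separate biological samples per the series design. Squared deviations between replicates were 8.64 to 52.7 times those of counting alone.

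The members and gene lists were chosen with earlier results of these data known. Named genes are all Gsdm symbols, list genes that passed a main comparison, 7 genes fixed in any case, neighbours, and the 5 genes most correlated with a member; a few of these are not listed, 1 gene of the protease list is not reported here, and the marker genes named were chosen after their values were seen. Samples sharing a replicate number did not deviate together (correlations 0 to 0.06), so numbers were not used as pairs. Alternatives were RLE scaling, DESeq2 1.42.0, limma-voom 3.58.1, no filter, 6 libraries only, a replicate block, Xist as covariate, knockout 3 alone, and each library left out. The testing script was checked on simulated counts.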

Additional observations from a re-analysis of the deposited data

How the results depend on the processing

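Gsdmc2 and Gsdmc3 kept their direction in every setting run and were called in 19 of 20 knockout settings, failing with Xist as covariate, and in 19 of 19 inhibitor settings. Their log2 changes ran from -3.48 to -2.78 and from -2.97 to -2.08 in the knockout, and from -3.08 to -2.35 and from -2.19 to -1.75 with WM-3835. Members called in the knockout numbered 3, but 0 with Xist as covariate (DESeq2 called 3 without it). They numbered 2 on the 6 libraries of the comparison and 2 to 3 with a library left out. The fit with knockout 3 alone is described above. With WM-3835, members called numbered 2, but 4 with limma-voom, 5 on the 6 libraries of the comparison and 2 to 2 with a library left out. In the difference between the effects they numbered 0, and 0 to 1 with a library left out.

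Genes called in the knockout numbered 2646, but 1180 with limma-voom, 1157 on 6 libraries, 480 with Xist, 704 with knockout 3 as the only knockout library and 1773 to 2792 with a library left out. With WM-3835 they numbered 3490, but 6589 with limma-voom, 6070 on 6 libraries and 2393 to 4241 with a library left out. For the difference they numbered 1887, but 695 with Xist, 784 with knockout 3 alone and 1346 to 2232 with a library left out. For DMSO against control they numbered 4600, but 795 with Xist and 3257 to 4778 with a library left out. With a library left out, the ratio of Gsdmd to the next member ran from 9.85 to 16 in control, 23.2 to 54.2 in the knockout, 13.8 to 18.4 with DMSO and 42.8 to 55.9 with WM-3835, and the log2 ratio of the summed GSDMC copies from -2.69 to -2.29, -2.14 to -1.74 and -0.54 to -0.12 in the knockout, inhibitor and DMSO comparisons.

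The sign changes below are all of values that did not pass under the settings of the report. With Xist as covariate the knockout changes of Gsdma and Gsdme became 0.45 and 0.07, the differences between effects -0.8 for Gsdmc4 and 0.24 for Gsdme, and the DMSO differences 1.62 for Gsdma, 0.08 for Gsdmc2, 0.34 for Gsdmc3, -1.04 for Gsdmc4, 3.3 for Gsdmcl-ps and 2.45 for Gsdme. With knockout 3 alone the knockout changes of Gsdma and Gsdme were 0.26 and 0.03, and the differences -0.2 for Gsdma2, -0.64 for Gsdmc4 and 0.16 for Gsdme. With limma-voom the differences were -0.28 for Gsdma and -0.06 for Gsdmc, and the DMSO difference of Gsdme 0.8. The replicate block, whose numbers do not pair the samples, called 3 and 2 members in the knockout and inhibitor comparisons as without it, and turned only Gsdme with WM-3835 (0.09), Gsdme with DMSO against control (0.18) and the differences of Gsdma2 (-0.08) and Gsdma (-0.16).

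With a library left out, sign changes occurred in these ranges: knockout Gsdmd -0.17 to 0.17 and Gsdma3 -0.37 to 0.74; WM-3835 Gsdme -0.35 to 0.14 and Gsdmd -0.03 to 0.15. The differences between effects ran from -1.24 to 1.24 for Gsdma2, -0.68 to 0.47 for Gsdma, -0.6 to 0.74 for Gsdmc4, -0.26 to 0.08 for Gsdmd and -1.04 to 0.91 for Gsdmc. The DMSO differences ran from -0.68 to 0.83 for Gsdme, -0.12 to 0.78 for Gsdmc4, -0.2 to 0.14 for Gsdmd, -0.87 to 0.22 for Gsdma2 and -0.51 to 0.19 for Gsdmc2. The causes were not tested. Depth limits Gsdmc, Gsdmcl-ps, Gsdmcl1 and Gsdmcl2, each with at most 68 counts in every library.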
